A study of Mus musculus with 40 samples.

Results

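The collagen chain genes are the protein-coding genes whose symbol is Col, a number, a and a number. All 44 such genes of the mouse annotation reached a summed count of at least 10 across the 40 libraries and are described here, among 25210 genes that passed the same limit. The chains with the lowest totals were Col26a1 with 42 counts and Col19a1 with 97, and no collagen chain gene fell below the limit. By structure, 11 were fibrillar, 6 were type IV chains of basement membranes, 9 were FACIT chains, 6 were type VI chains, 3 were short chains of networks, 2 were multiplexins, 4 were transmembrane, 1 was the anchoring fibril chain, and Col26a1 and Col28a1 were left unclassified.

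The cells were cardiac fibroblasts isolated from C57BL/6J TAK1fl/fl mice and used at passage 1. Map3k7, the gene of the kinase TAK1, has an exon flanked by loxP sites in all of these cells. They were transduced with an adenovirus for Cre recombinase (iCre, which deletes the flanked exon) or for LacZ (the control). They were then serum-starved and kept for 24 h without a ligand (Con) or with TGFβ or TNFα (10 ng/ml each), IL-1β (15 ng/ml) or bFGF (20 ng/ml). Each of the 10 groups had 4 replicates. All cells had been grown in medium with bFGF before starvation, so Con is a state after withdrawal of serum and growth factor. The deletion was made in culture in a population of transduced cells and not in a selected clone.

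Collagens are secreted proteins made of 3 chains wound into a triple helix. Fibrillar collagens (types I, II, III, V, XI and others) pack side by side into the cables that give tissue its tensile strength. FACIT collagens (fibril-associated collagens with interrupted triple helices) sit on the surface of those fibrils, and type IV chains join end to end into the sheet of the basement membrane. In the heart, fibroblasts are the main source of types I and III, and TGFβ is the best-known inducer of scar collagen.

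The promoters of 5 chains are printed because results given below turn on these genes. Col1a2 rose with TGFβ, Col3a1 had the highest mean level of the chains over the 40 libraries, per length, and did not pass the test with TGFβ, and Col4a2 shares its start region with Col4a1. Col7a1 and Col16a1 were called for a difference in the TGFβ response between LacZ and iCre. Each window runs 5′ to 3′ from 250 bases before to 50 bases after the RefSeq start on GRCm38.p6, and capitals mark letters of the CCAAT box (CCAAT), the TATA box (TATAAA) and the GC box (GGGCGG) on either strand. For Col1a2 the RefSeq start is at 4505618 and the gene starts at 4504814 in the annotation, outside the window. A box without a mark may still lie outside a window.
Col1a2 (chr6:4505368-4505667, plus strand): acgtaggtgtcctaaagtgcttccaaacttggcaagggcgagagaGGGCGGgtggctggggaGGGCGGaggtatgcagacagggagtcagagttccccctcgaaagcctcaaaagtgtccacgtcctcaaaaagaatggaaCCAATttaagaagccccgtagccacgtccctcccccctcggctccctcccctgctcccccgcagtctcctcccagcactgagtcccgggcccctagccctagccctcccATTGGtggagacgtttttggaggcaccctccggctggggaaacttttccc
Col3a1 (chr1:45311288-45311587, plus strand): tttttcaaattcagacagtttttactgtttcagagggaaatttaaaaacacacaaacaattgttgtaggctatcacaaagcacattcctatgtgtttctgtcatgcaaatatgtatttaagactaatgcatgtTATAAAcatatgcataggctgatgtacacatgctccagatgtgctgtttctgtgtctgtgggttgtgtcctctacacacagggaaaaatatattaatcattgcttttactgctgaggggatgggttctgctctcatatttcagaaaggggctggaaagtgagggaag
Col4a2 (chr8:11312555-11312854, plus strand): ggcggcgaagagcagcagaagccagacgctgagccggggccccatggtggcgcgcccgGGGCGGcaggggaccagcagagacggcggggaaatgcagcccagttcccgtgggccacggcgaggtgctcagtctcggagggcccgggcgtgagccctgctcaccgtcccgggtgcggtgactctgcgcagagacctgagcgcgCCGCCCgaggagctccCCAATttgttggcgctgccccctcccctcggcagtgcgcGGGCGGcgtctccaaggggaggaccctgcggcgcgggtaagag
Col7a1 (chr9:108953336-108953635, plus strand): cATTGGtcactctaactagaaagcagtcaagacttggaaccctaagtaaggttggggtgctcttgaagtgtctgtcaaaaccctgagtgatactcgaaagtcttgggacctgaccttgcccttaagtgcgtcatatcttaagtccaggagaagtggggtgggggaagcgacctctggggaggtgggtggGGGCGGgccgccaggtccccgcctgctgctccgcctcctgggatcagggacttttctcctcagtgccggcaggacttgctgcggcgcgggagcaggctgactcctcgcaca
Col16a1 (chr4:130047590-130047889, plus strand): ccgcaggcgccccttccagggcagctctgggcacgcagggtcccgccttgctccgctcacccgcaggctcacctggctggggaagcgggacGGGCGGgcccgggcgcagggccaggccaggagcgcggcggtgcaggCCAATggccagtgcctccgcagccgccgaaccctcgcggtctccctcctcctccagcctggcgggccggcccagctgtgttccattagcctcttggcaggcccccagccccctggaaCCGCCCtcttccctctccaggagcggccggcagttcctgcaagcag
No capital run overlaps another in these 5 windows.

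RefSeq windows were matched for 35 of the 44 genes by symbol. CCAAT was found in 13 of the 35 (37.1%), against 37.4% of all 32851 windows, and TATAAA in 5 (14.3%), against 13.6%. GGGCGG was found in 22 (62.9%), against 35.7% of all windows. CAGAC was found in 20 (57.1%, against 49.6% of all windows), and TGANTCA in 1 (2.86%, against 7.81%), each on either strand. An NF-κB motif was found in 1 (2.86%, against 1.63%). These are letter matches and were not tested. The window of Col4a2 also holds the start of Col4a1, which is transcribed from the opposite strand 21 bases away. The starts of Col4a3 and Col4a4 lie 72 bases apart in the annotation, and those of Col4a5 and Col4a6 lie 1309 bases apart.

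Each library held 25360947 to 66160732 counts on genes, with a median of 36183962. Values are given as CPM, read counts scaled to a common library size by TMM, and a gene was called at a Benjamini-Hochberg adjusted p of at most 0.05 in edgeR's quasi-likelihood test. A signed value in parentheses after a gene, and a size by which it rose, fell or differed, is a log2 fold change. Replicates are described as biological, from male mice, in the study's legends, and whether each was a separate cell isolation is not given. Map3k7 was lower in iCre than in LacZ in every treatment, with log2 fold changes between −0.28 in Con and −0.82 with IL-1β, and its counts include reads from outside the flanked exon. It was called with TGFβ, IL-1β and TNFα, and in all 5 treatments with the replicate number as a block. Markers of fibroblasts (Pdgfra, Dcn, Tcf21 and Ddr2) summed to 3826 to 4460 CPM in LacZ Con, against 24.3 to 26.1 CPM for 5 endothelial, 49.9 to 144 CPM for 5 leukocyte, 189 to 729.7 CPM for 5 mural and 14.9 to 111 CPM for 4 cardiomyocyte markers, of which Myh6 had fewer than 10 counts. In bulk RNA, fewer cells of a type and less RNA per cell cannot be told apart.

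Replicates were not alike in their collagens. Of the 34 chains with a mean of at least 1 CPM, replicate 2 was the lowest of the 4 libraries in all 10 groups for 7 (Col14a1, Col2a1, Col4a2, Col4a3, Col4a5, Col4a6 and Col8a1) and the highest in all 10 for Col12a1 and Col27a1. Replicate 1 was the highest in all 10 groups for Col4a1, Col4a2 and Col4a4, and replicates 3 and 4 were at neither end in all 10 groups for any chain. Replicate 1 of every group also carries a library number from a separate run of numbers. Numbers of chains called with the replicate block are therefore given beside those without it.

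The summed CPM of the collagen chains, as a percentage of the nominal CPM total, was 4.41% in LacZ Con and 8.05% with TGFβ. In iCre fibroblasts this measure was 2.89% in Con, 7.74% with TGFβ and 1.9% with TNFα, the lowest mean of the 10 groups. TMM-scaled CPM do not add up to the nominal total, so these are not shares of the reads. TMM factors were 1.046 to 1.133 in LacZ Con and 0.7931 to 0.8629 with TGFβ. In iCre they were 1.092 to 1.142 and 0.815 to 0.8493. A factor below 1 makes this measure larger than the share of reads, and a factor above 1 smaller. Divided by transcript length, Col3a1 (2193 CPM per kb over the 40 libraries), Col1a1 (1386 CPM per kb) and Col1a2 (1328 CPM per kb) ranked 4, 15 and 16 among 12300 protein-coding genes. Col4a1 led the type IV chains at 255 CPM per kb, and Col16a1 the FACIT chains at 77.7 CPM per kb. Fibrillar chains made up 80.9% of the length-scaled collagen level in LacZ Con, 68.2% with bFGF and 85.7% with TGFβ. In iCre fibroblasts their share ranged from 61.5% with TNFα to 86.9% with TGFβ. Type IV chains made up 6.42% in LacZ Con and 12.9% in iCre with TNFα, and FACIT chains between 1.28% and 3.42% over all 10 groups. Of the 44 chains, Col9a1, Col19a1 and Col26a1 stayed under 1 CPM on average in every group and were called in no comparison.

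**Figure D1:**
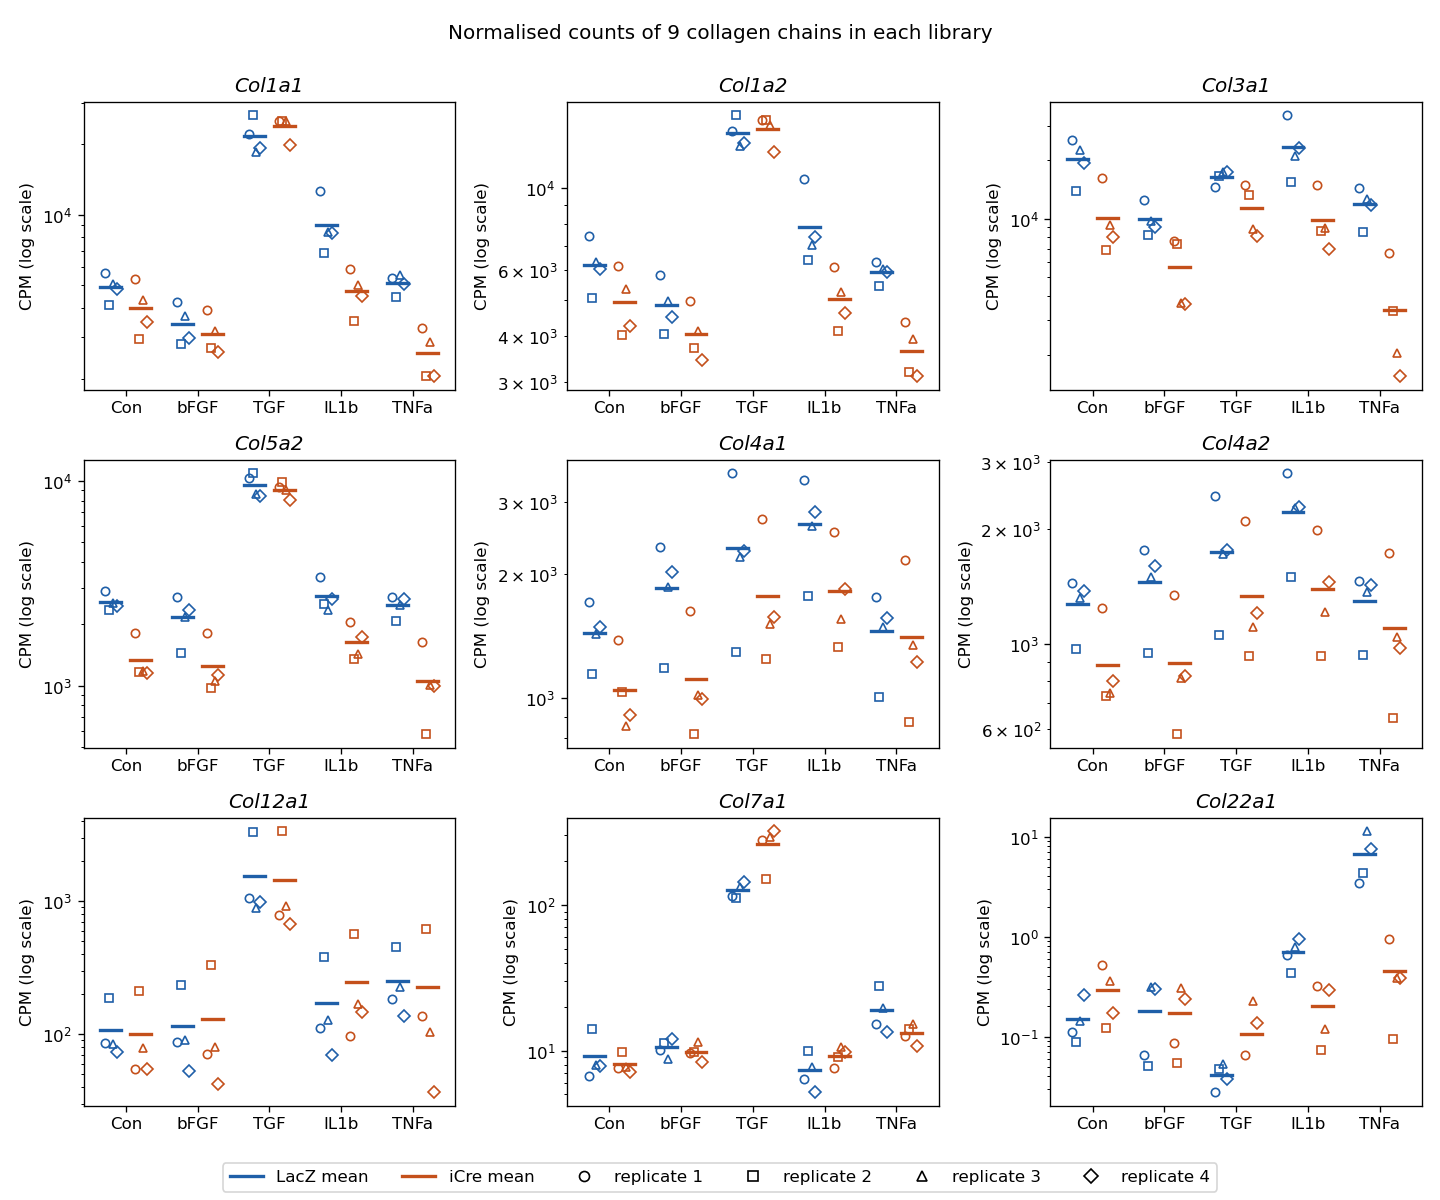
CPM on a log scale of 9 collagen chains in each library, by treatment (Con, bFGF, TGF for TGFβ, IL1b for IL-1β, TNFa for TNFα), with LacZ in blue and iCre in orange. Marker shapes stand for the 4 replicate numbers and bars for the group means, and 1 iCre library with TGFβ at 0 counts of Col22a1 is not drawn. Col1a1 stood at 4907 CPM in LacZ Con and 21540 CPM with TGFβ, while Col3a1 stood at 20265 and 16445 CPM.

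The first question was which chains each ligand changed in LacZ fibroblasts. With TGFβ, 13 of the 44 chains rose and 12 fell, with 17.5% of all genes higher and 19.3% lower in the same test. Among the 34 chains with a mean of at least 1 CPM, 19 were called, beside 58.2% of protein-coding genes at that level. IL-1β raised 6 and lowered 9 chains (11.1% of all genes higher and 9.55% lower), TNFα raised 5 and lowered 10 (10.9% of all genes higher and 10.4% lower), and bFGF raised 2 and lowered 5 (7% of all genes higher and 4.64% lower). The median log2 fold change of the 44 chains was −0.15 with TGFβ, −0.57 with IL-1β, −0.21 with TNFα and 0.02 with bFGF, against −0.17, −0.10, −0.08 and −0.03 over all genes tested. With the replicate block the numbers higher and lower were 16 and 16 with TGFβ, 10 and 22 with IL-1β, 7 and 21 with TNFα, and 8 and 13 with bFGF, where 42%, 33.5%, 35.5% and 27.3% of all genes were called. All 4 comparisons share the LacZ Con libraries. When each replicate number was left out in turn, 16 of the 25 calls with TGFβ were kept each time, 6 of 15 with IL-1β, 6 of 15 with TNFα and 1 of 7 with bFGF. The leave-out fits had no block. The lowest shares of all genes called in them were 25.9%, 9.22%, 10.5% and 1.32%, from 36.9%, 20.7%, 21.3% and 11.6% with all replicates. Without replicate 2 the shares were 37.1%, 23.4%, 23.5% and 18.2%.

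In iCre fibroblasts, TGFβ raised 16 chains and lowered 7 (18.6% of all genes higher and 18.8% lower), IL-1β raised 2 and lowered 2 (9.38% of all genes higher and 6.88% lower), and TNFα raised 4 and lowered 8 (14.7% of all genes higher and 12.3% lower). No chain was called with bFGF by edgeR (1.79% of all genes higher and 0.635% lower), while 10 had an unadjusted p under 0.05 (as did 16.7% of all genes) and DESeq2 called 4 (8% of all genes). With the replicate block the numbers higher and lower were 18 and 11 with TGFβ, 14 and 9 with IL-1β, 9 and 22 with TNFα, and 7 and 11 with bFGF, against 41.5%, 33.8%, 36.1% and 16.7% of all genes. Of these calls without the block, 18 of 23 with TGFβ, 1 of 4 with IL-1β and 3 of 12 with TNFα were kept when each replicate number was left out. The lowest shares of all genes called in these leave-out fits were 27%, 6.85% and 14%, from 37.4%, 16.3% and 27%.

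The second question was how deletion changed the chains within each treatment. Without a ligand, no chain was called between iCre and LacZ by edgeR (0.0278% of all genes higher and 0.0476% lower), 12 had an unadjusted p under 0.05 (as did 14% of all genes) and DESeq2 called 3 (5.25% of all genes). With the replicate block 4 were higher and 17 lower in iCre, where 14.5% of all genes were called. With bFGF none was called (0% of all genes higher and 0% lower; 10 chains and 10.3% of all genes at an unadjusted p under 0.05, and 0 chains and 1.9% of all genes by DESeq2), and 5 were higher and 16 lower with the block (background 13.9%). With TGFβ only Col7a1 was called (2.51% of all genes higher and 5.87% lower), against 11 higher and 6 lower chains with the block (20.8%). With IL-1β 5 were higher and 5 lower in iCre (7.14% of all genes higher and 8.98% lower), and with TNFα 4 and 8 (14.8% of all genes higher and 12.6% lower). With the block these were 12 and 12 with IL-1β and 5 and 15 with TNFα (29.5% and 32.2% of all genes). Leaving out each replicate number in turn kept 2 of 10 calls with IL-1β, 3 of 12 with TNFα and not the call of Col7a1 with TGFβ. In these leave-out fits the lowest shares of all genes called were 6.18%, 13% and 2.01%, from 16.1%, 27.3% and 8.37%. GC content moved with these groups: the slope of a gene's deviation on its GC content ranged from 0.197 to 0.339 log2 units for each 10% of GC in 12 libraries, those of iCre cells given TNFα, TGFβ or IL-1β, and was at most 0.00268 in the other 28. The median GC content was 55.1% for collagen transcripts and 49.7% for protein-coding genes with at least 1 CPM. A fit corrected for GC content was therefore also made.

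**Figure D2:**
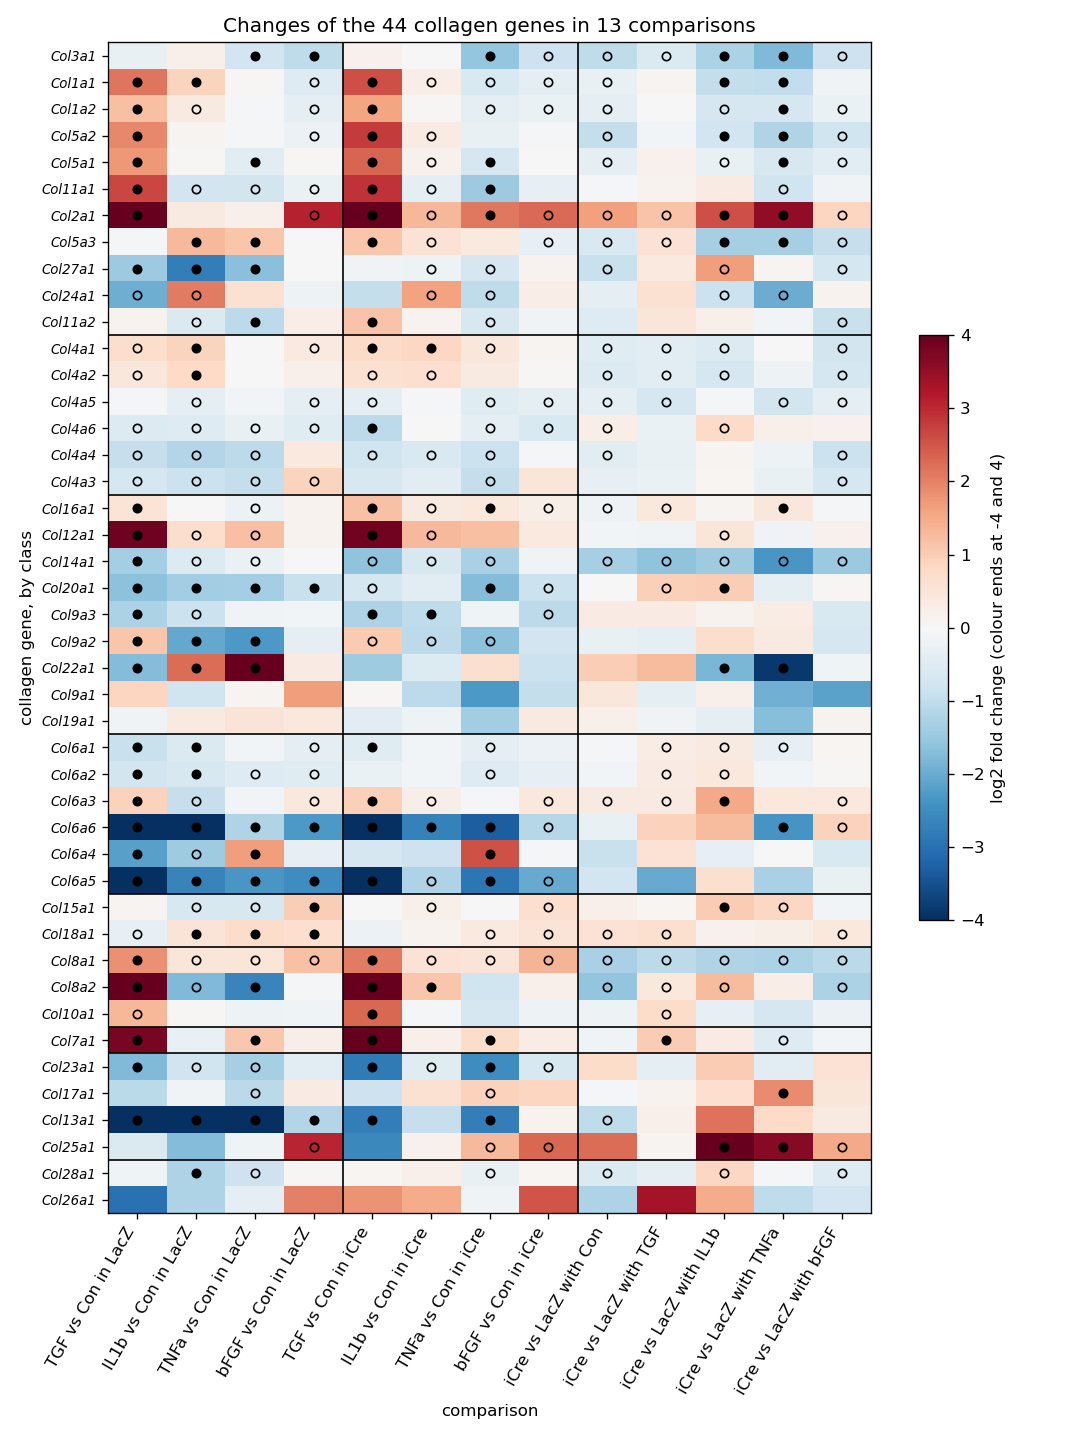
Log2 fold change of each of the 44 collagen genes (vertical axis, by class and by falling length-scaled level within a class) in the 13 comparisons of 2 groups (horizontal axis), red for higher and blue for lower in the first-named group. Filled circles mark genes called and open circles those called only with the replicate block. In the TGFβ columns Col1a1, Col1a2, Col5a1, Col5a2, Col11a1 and Col2a1 rose in both LacZ and iCre, and the columns of iCre against LacZ with Con and bFGF hold open circles only.

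Fibrillar, type IV and FACIT chains were set side by side, first in LacZ fibroblasts. With TGFβ, 6 of 11 fibrillar chains were higher and 1 lower, 0 and 0 of 6 type IV chains, and 3 and 4 of 9 FACIT chains (median log2 fold changes 1.19, −0.31 and −0.13, against −0.17 over all genes, with 17.5% called higher and 19.3% lower). With IL-1β, 2 of 11 fibrillar chains were higher and 1 lower, 2 and 0 of 6 type IV chains, and 1 and 2 of 9 FACIT chains (median log2 fold changes 0.21, −0.44 and −0.56, against −0.10 over all genes, with 11.1% called higher and 9.55% lower). With TNFα, 1 of 11 fibrillar chains were higher and 4 lower, 0 and 0 of 6 type IV chains, and 1 and 2 of 9 FACIT chains (median log2 fold changes −0.07, −0.21 and −0.14, against −0.08 over all genes, with 10.9% called higher and 10.4% lower). With bFGF, 0 of 11 fibrillar chains were higher and 1 lower, 0 and 0 of 6 type IV chains, and 0 and 1 of 9 FACIT chains (median log2 fold changes −0.21, 0.29 and 0.13, against −0.03 over all genes, with 7% called higher and 4.64% lower). With the replicate block the numbers of fibrillar, type IV and FACIT chains were 6, 2 and 3 higher and 2, 3 and 3 lower with TGFβ, 4, 2 and 2 higher and 3, 4 and 4 lower with IL-1β, 1, 0 and 2 higher and 5, 3 and 4 lower with TNFα, and 1, 2 and 0 higher and 5, 2 and 1 lower with bFGF. In these fits 42%, 33.5%, 35.5% and 27.3% of all genes were called in either direction.

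In iCre fibroblasts the classes were again given in the order fibrillar, type IV and FACIT. The numbers higher were 8, 1 and 2 with TGFβ, and those lower 0, 1 and 1, at medians of 1.57, −0.50 and −0.46 (−0.11 over all genes, with 18.6% called higher and 18.8% lower). The numbers higher were 0, 1 and 0 with IL-1β, and those lower 0, 0 and 1, at medians of 0.16, −0.04 and −0.55 (0.00 over all genes, with 9.38% called higher and 6.88% lower). The numbers higher were 1, 0 and 1 with TNFα, and those lower 3, 0 and 1, at medians of −0.65, −0.43 and −1.28 (−0.04 over all genes, with 14.7% called higher and 12.3% lower). No chain of these classes was called with bFGF, at medians of −0.15, −0.02 and −0.76 (0.00 over all genes, with 1.79% called higher and 0.635% lower). With the block the numbers were 8, 2 and 3 higher and 0, 3 and 3 lower with TGFβ, 6, 2 and 2 higher and 2, 1 and 3 lower with IL-1β, 1, 1 and 1 higher and 8, 4 and 3 lower with TNFα, and 1, 0 and 1 higher and 4, 2 and 2 lower with bFGF. The shares of all genes called in these fits were 41.5%, 33.8%, 36.1% and 16.7%.

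Between iCre and LacZ no chain of these classes was called in Con, with TGFβ or with bFGF, where 0.0278%, 2.51% and 0% of all genes were higher and 0.0476%, 5.87% and 0% lower. With IL-1β, 1 fibrillar, 0 type IV and 1 FACIT chains were higher and 4 fibrillar, 0 type IV and 1 FACIT chains lower in iCre, with 7.14% of all genes higher and 8.98% lower. With TNFα, 1 fibrillar, 0 type IV and 1 FACIT chains were higher and 6 fibrillar, 0 type IV and 1 FACIT chains lower, with 14.8% of all genes higher and 12.6% lower. With the block, 1 fibrillar, 1 type IV and 0 FACIT chains were higher and 7 fibrillar, 4 type IV and 2 FACIT chains lower in Con, where 14.5% of all genes were called. With TGFβ and the block, 2 fibrillar, 0 type IV and 2 FACIT chains were higher and 1 fibrillar, 3 type IV and 1 FACIT chains lower (20.8% of all genes). With bFGF and the block, 1 fibrillar, 0 type IV and 0 FACIT chains were higher and 7 fibrillar, 5 type IV and 1 FACIT chains lower (13.9% of all genes). With IL-1β and the block, 2 fibrillar, 1 type IV and 2 FACIT chains were higher and 7 fibrillar, 2 type IV and 2 FACIT chains lower (29.5% of all genes). With TNFα and the block, 1 fibrillar, 0 type IV and 1 FACIT chains were higher and 8 fibrillar, 1 type IV and 2 FACIT chains lower (32.2% of all genes). The medians in the same order of classes were −0.39, −0.38 and 0.01 in Con, −0.66, 0.00 and 0.14 with IL-1β and −0.78, −0.21 and −0.38 with TNFα, where all genes had medians of −0.03, 0.04 and 0.00. They were 0.16, −0.36 and −0.14 with TGFβ and −0.43, −0.70 and −0.18 with bFGF, against 0.00 and 0.00.

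TGFβ raised 6 of the 11 fibrillar chains in LacZ fibroblasts and lowered 1 (17.5% of all genes higher and 19.3% lower), and the median of the 11 was 1.19 on the log2 scale, against −0.17 over all genes. Col1a1 and Col1a2 encode the chains of type I collagen, the main collagen of scar. Col1a1 was at 5624, 4119, 5073 and 4813 CPM in the 4 LacZ Con libraries and at 22137, 26433, 18460 and 19130 CPM with TGFβ. Col1a2 was at 7421, 5059.6, 6337 and 6048 CPM in LacZ Con and at 14277, 15732, 13007 and 13275 CPM with TGFβ. For both genes every library with TGFβ lay above every Con library (2.15 ± 0.20, log2 fold change and standard error, adjusted p = 2.35e-05 for Col1a1, and 1.19 ± 0.18, adjusted p = 4.69e-04 for Col1a2). Col5a1 and Col5a2 encode type V chains, which start fibrils and limit their width. Col5a2 was at 2909, 2343, 2539 and 2435 CPM in Con and at 10344, 10850, 8632 and 8428 CPM with TGFβ, again with no overlap (log2 fold change of 1.92 with a standard error of 0.16, adjusted p = 1.37e-05), and Col5a1 rose by 1.74 (adjusted p = 1.40e-05). Col11a1 and Col2a1, chains best known from cartilage, rose by 2.67 and 4.49, with Col2a1 at only 2.74 to 19.4 CPM in Con and 34.9 to 527 CPM with TGFβ. Col27a1 fell by 1.44 on the log2 scale. All 7 calls were kept when each replicate number was left out. In these libraries 3 of the 4 fibroblast markers (Pdgfra, Dcn and Ddr2) fell with TGFβ, and the 4 summed to 3826 to 4460 CPM in LacZ Con and 1558 to 2114 CPM with TGFβ. Of the 5 mural markers Cspg4 rose and Kcnj8 and Notch3 fell, and the 5 summed to 189 to 729.7 CPM and 742 to 1274 CPM. The part of these markers' cells in the collagen values was not tested.

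Col3a1, which encodes the single chain of type III collagen, was not called with TGFβ. It was at 25357, 13915, 22377 and 19410 CPM in LacZ Con and at 14480, 16531, 17362 and 17407 CPM with TGFβ. The 2 groups overlapped, and the difference did not pass the test (log2 fold change of −0.29 with a standard error of 0.22, adjusted p = 0.341; −0.25, adjusted p = 0.233 with the replicate block). In iCre fibroblasts Col3a1 was at 16213, 6857, 9284 and 7998 CPM in Con and at 14872, 13244, 8834 and 8160.1 CPM with TGFβ, which also overlapped (log2 fold change 0.18, adjusted p = 0.677). Promoters of Col1a2 and Col3a1 are printed above. In the same iCre libraries TGFβ raised 8 fibrillar chains and lowered none (18.6% of all genes higher and 18.8% lower), with Col1a1 at 24974, 25111, 24985 and 19819 CPM against 5307, 2949, 4331 and 3475 CPM in Con (log2 fold change of 2.58 with a standard error of 0.22, adjusted p = 8.89e-06). Col5a2 rose by 2.79, Col5a1 by 2.32, Col11a1 by 2.90, Col1a2 by 1.57 and Col2a1 by 4.02 (4.63 (adjusted p = 0.00769) without replicate 4), and Col5a3 and Col11a2 by 1.11 and 1.14. The call of Col5a3 was lost with the GC correction (0.97, adjusted p = 0.0508) and without replicate 3 or 4. The same 3 fibroblast markers fell in iCre, where the 4 summed to 3058 to 4166 CPM in Con and 924 to 1301 CPM with TGFβ, and the mural markers to 357 to 1004 CPM and 815 to 1986 CPM (Cspg4 higher, Kcnj8 lower), and their part was not tested.

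Ratios between chains give their balance within a library. Per kb of transcript, the ratio of Col1a1 to Col3a1 was 0.233 ± 0.0318 (SD, n = 4) in LacZ Con and 1.24 ± 0.263 with TGFβ, with ranges of 0.208 to 0.278 and 0.998 to 1.5. In iCre the ratio was 0.389 ± 0.0567 in Con and 2.07 ± 0.488 with TGFβ. No library with TGFβ overlapped a Con library of the same virus. The ratio of Col1a1 to Col1a2 went from 0.714 ± 0.0217 in LacZ Con to 1.37 ± 0.108 with TGFβ and 1.04 ± 0.0542 with IL-1β. In iCre fibroblasts with IL-1β it was 0.843 ± 0.0518, below all 4 LacZ libraries with IL-1β. Each of these contrasts gave p = 0.0286 in a two-sided exact permutation test of the log2 ratios, the smallest that 4 against 4 can give. After Benjamini-Hochberg adjustment over the 52 tests of 4 ratios in 13 comparisons it was 0.0572, and none passed 0.05. With this smallest p, no contrast could pass by its own size, whatever the shift, so the adjusted values do not decide whether these ratios changed. The test also did not use the pairing of the replicate numbers.

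**Figure D3:**
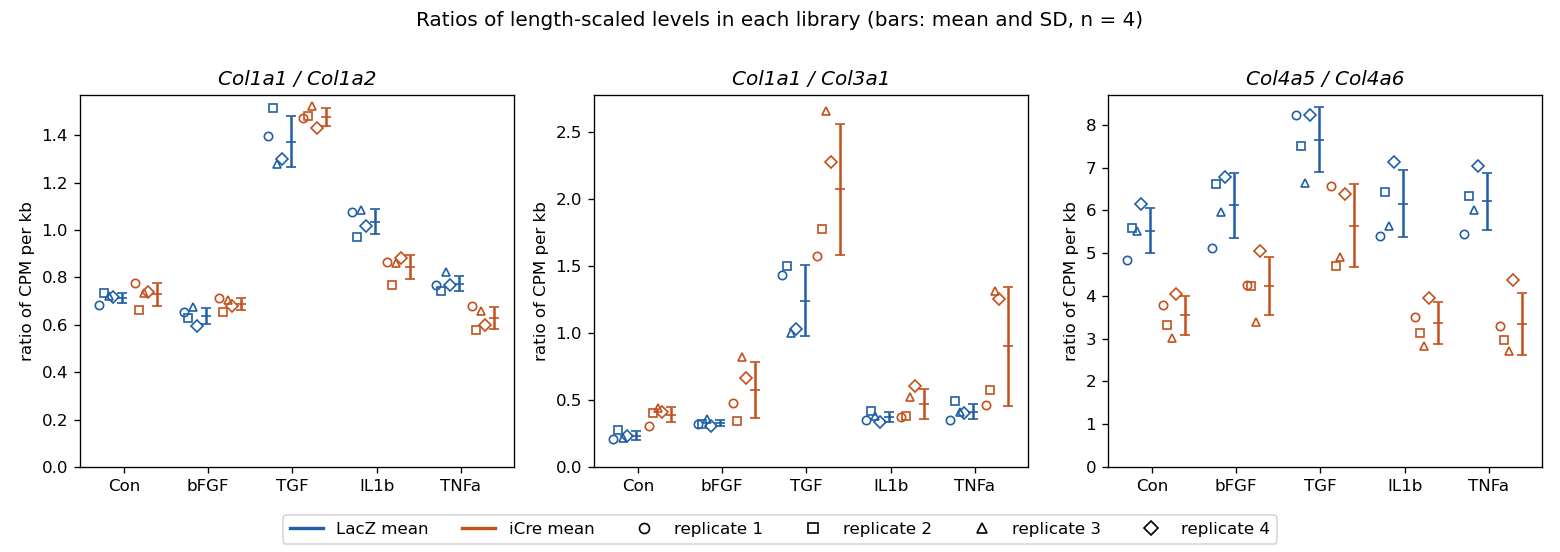
Ratios of length-scaled levels (CPM per kb) of Col1a1 to Col1a2, Col1a1 to Col3a1 and Col4a5 to Col4a6 in each library, by treatment, with LacZ in blue and iCre in orange, and with marker shapes for the replicate numbers. Bars give the mean and SD of the 4 libraries beside the points. The ratio of Col1a1 to Col3a1 reached 2.07 in iCre with TGFβ, and the ratio of Col4a5 to Col4a6 was lower in iCre than in LacZ in each treatment.

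IL-1β raised Col1a1 and Col5a3 and lowered Col27a1 in LacZ fibroblasts. Col1a1 was at 12655, 6875, 8426 and 8316 CPM with IL-1β, all above the Con libraries (log2 fold change of 0.90 with a standard error of 0.22, adjusted p = 0.0181), and its call was lost without replicate 3 or 4 (adjusted p up to 0.0861). Col5a3, a minor type V chain, went from 109.7 ± 23.8 CPM to 266 ± 51.7 CPM (log2 fold change of 1.29 with a standard error of 0.19, adjusted p = 0.00119). Col1a2 and Col3a1 had log2 fold changes of 0.35 (adjusted p = 0.303; 0.33, adjusted p = 0.00384 with the block) and 0.21 (adjusted p = 0.675). In iCre fibroblasts IL-1β changed no fibrillar chain by the test, with Col1a1 at 5886, 3506, 4997 and 4516 CPM against 5307, 2949, 4331 and 3475 CPM in Con. These groups overlapped (log2 fold change 0.26, adjusted p = 0.49; 0.26, adjusted p = 0.00112 with the block, which called 6 fibrillar chains higher and 2 lower and 33.8% of all genes).

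TNFα lowered Col3a1, Col5a1, Col11a2 and Col27a1 in LacZ fibroblasts and raised Col5a3 (1.10; 0.58 (adjusted p = 0.00809) without replicate 2). Col3a1 was at 14408, 8530.3, 12619 and 11784 CPM with TNFα (log2 fold change of −0.78 with a standard error of 0.24, adjusted p = 0.0437), where the highest library with TNFα exceeded the lowest Con library. Col5a1 changed by −0.44, Col11a2 by −1.06 and Col27a1 by −1.67, while Col1a1 was at 5101 ± 459.8 CPM, with groups that overlapped (log2 fold change 0.06, adjusted p = 0.834). None of the 5 calls survived leaving out every replicate number in turn: that of Col3a1 was lost without replicate 1, 3 or 4 (adjusted p up to 0.19), and that of Col11a2 also with the GC correction (−0.87, adjusted p = 0.058). The calls of Col3a1 and Col5a1 were also lost in the fit of all 40 libraries. In iCre fibroblasts TNFα lowered Col3a1 (−1.53), Col5a1 (−0.67) and Col11a1 (−1.45) and raised Col2a1 (2.11), the last only just (adjusted p = 0.0496) and not with the GC correction (2.02, adjusted p = 0.0576), with RLE normalization, among protein-coding genes only, in the fit of all 40 libraries or without replicate 1, 3 or 4 (adjusted p up to 0.212). Col3a1 was at 6670, 3346, 2047 and 1544 CPM, all below the iCre Con libraries, and this call and that of Col5a1 were lost without replicate 3 or 4 (adjusted p up to 0.145 and 0.167). bFGF lowered Col3a1 in LacZ fibroblasts to 12514, 8260.5, 9726 and 9078 CPM, all below Con (log2 fold change of −1.02 with a standard error of 0.23, adjusted p = 0.0193), a call lost without replicate 1, 3 or 4 (adjusted p up to 0.163). Col1a1 had a log2 fold change of −0.50 with bFGF (adjusted p = 0.0959; −0.51, adjusted p = 4.38e-05 with the block).

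In Con, Col3a1 was at 16213, 6857, 9284 and 7998 CPM in iCre against 25357, 13915, 22377 and 19410 CPM in LacZ. The groups overlapped through replicate 1 of iCre and replicate 2 of LacZ, and within every replicate number iCre was the lower (log2 fold change −1.02, adjusted p = 0.18; −1.07, adjusted p = 7.66e-07 with the block). Col5a2 was at 1810.2, 1166, 1181 and 1146 CPM in iCre and 2909, 2343, 2539 and 2435 CPM in LacZ, with no overlap (log2 fold change of −0.96 with a standard error of 0.17, adjusted p = 0.0718; −0.98, adjusted p = 2.67e-07 with the block). Col1a1 differed by −0.30 (adjusted p = 0.511; −0.33, adjusted p = 0.0042 with the block). With the block, 7 fibrillar chains were lower in iCre Con (Col1a1, Col1a2, Col3a1, Col5a1, Col5a2, Col5a3 and Col27a1) and Col2a1 was higher, in a fit that called 14.5% of all genes. With the same block Pdgfra was higher and Dcn and Tcf21 were lower of the 4 fibroblast markers, which summed to 3058 to 4166 CPM in iCre Con and 3826 to 4460 CPM in LacZ Con. Of the 5 mural markers Rgs5 and Cspg4 were higher and Myh11 and Notch3 lower (357 to 1004 CPM and 189 to 729.7 CPM), of the 5 endothelial ones Tek was lower (9.87 to 17.9 CPM and 24.3 to 26.1 CPM, without overlap), and of the 5 leukocyte ones Csf1r, Adgre1 and Lyz2 were lower (28.1 to 80.7 CPM and 49.9 to 144 CPM). Their part in these differences was not tested.

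With IL-1β, Col1a1 (−0.96), Col3a1 (−1.26), Col5a2 (−0.75) and Col5a3 (−1.33) were lower in iCre and Col2a1 (2.57) was higher. For the 4 lower chains no iCre library reached a LacZ library, as with Col3a1 at 14911, 8681, 8958 and 7002 CPM in iCre against 33873, 15354, 20936 and 23142 CPM in LacZ (log2 fold change of −1.26 with a standard error of 0.32, adjusted p = 0.0239). With TNFα these 4 and also Col1a2 (−0.68) and Col5a1 (−0.63) were lower, again without overlap. Col3a1 differed by −1.77 (adjusted p = 0.012), Col5a3 by −1.33, Col5a2 by −1.21 and Col1a1 by −0.97 (adjusted p = 0.00423), and Col2a1 was higher by 3.54. Of the fibroblast markers, Dcn was lower in iCre with IL-1β, where the 4 summed to 3187 to 4354 CPM in iCre and 5698 to 9268 CPM in LacZ. With TNFα Pdgfra and Dcn were lower, and the 4 summed to 2639 to 3560 CPM in iCre and 4183 to 4607 CPM in LacZ. Of the mural markers Cspg4 and Kcnj8 were higher in iCre with both ligands, and with TNFα also Rgs5, while Notch3 was lower, at sums of 353 to 1235 CPM in iCre and 143 to 500.5 CPM in LacZ with TNFα and 451 to 1035 CPM and 321 to 856 CPM with IL-1β. Their part in these differences was not tested. Without replicate 3 or 4 most of these calls were lost, in fits that had no block: Col5a3 was kept with IL-1β, and Col1a1 and Col2a1 with TNFα. The call of Col2a1 with IL-1β was lost with the GC correction (2.24, adjusted p = 0.106), and in its fits replicate 2 was the lowest library of every group.

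With TGFβ no fibrillar chain was called between iCre and LacZ. Col1a1 was at 24974, 25111, 24985 and 19819 CPM in iCre and 22137, 26433, 18460 and 19130 CPM in LacZ, with overlap, and the sign of the difference changed with the GC correction (log2 fold change 0.11, adjusted p = 0.775; −0.16, adjusted p = 0.76 with it). Col3a1 differed by −0.58 (adjusted p = 0.127; −0.62, adjusted p = 0.00204 with the block). The difference in TGFβ response was called for 1 fibrillar chain: Col5a2 rose by 2.79 in iCre and 1.92 in LacZ (interaction 0.84, standard error 0.23, adjusted p = 0.0457; 0.80, adjusted p = 0.148 with the GC correction). This call was also lost in the fit of all 40 libraries and without replicate 3 or 4. Every iCre library of Col5a2 lay below every LacZ library in Con, and the libraries overlapped with TGFβ. Col27a1 was called for a difference in IL-1β response (log2 fold change of 2.55 with a standard error of 0.74, adjusted p = 0.0465): it was at 24.7, 38.1, 20.9 and 24.7 CPM in LacZ Con, 1.75, 8.88, 2.14 and 2.99 CPM in LacZ with IL-1β, 14.8, 26.8, 9.23 and 8.03 CPM in iCre Con and 8.49, 27, 8.21 and 7.25 CPM in iCre with IL-1β, where the 2 iCre groups overlapped. This call was lost with the GC correction (2.33, adjusted p = 0.109) and without replicate 1, 3 or 4 (adjusted p up to 0.221). The IL-1β response of Col1a1 differed by −0.66 (adjusted p = 0.266; −0.62, adjusted p = 0.00108 with the block) and its TNFα response by −0.68 (adjusted p = 0.111; −0.69, adjusted p = 0.00117 with the block). Over all 44 chains, 3 interactions were called with TGFβ (background 4.51%), 3 with IL-1β (7.71%), 2 with TNFα (16.1%) and 0 with bFGF (0%; 1 chain and 3.03% of all genes at an unadjusted p under 0.05, and 0 chains and 0% of all genes by DESeq2). With the block there were 8, 13, 10 and 0, where 8.04%, 16.9%, 25.1% and 0% of all genes were called. Of the interactions called without the block, only that of Col22a1 with TNFα was kept when each replicate number was left out.

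**Figure D4:**
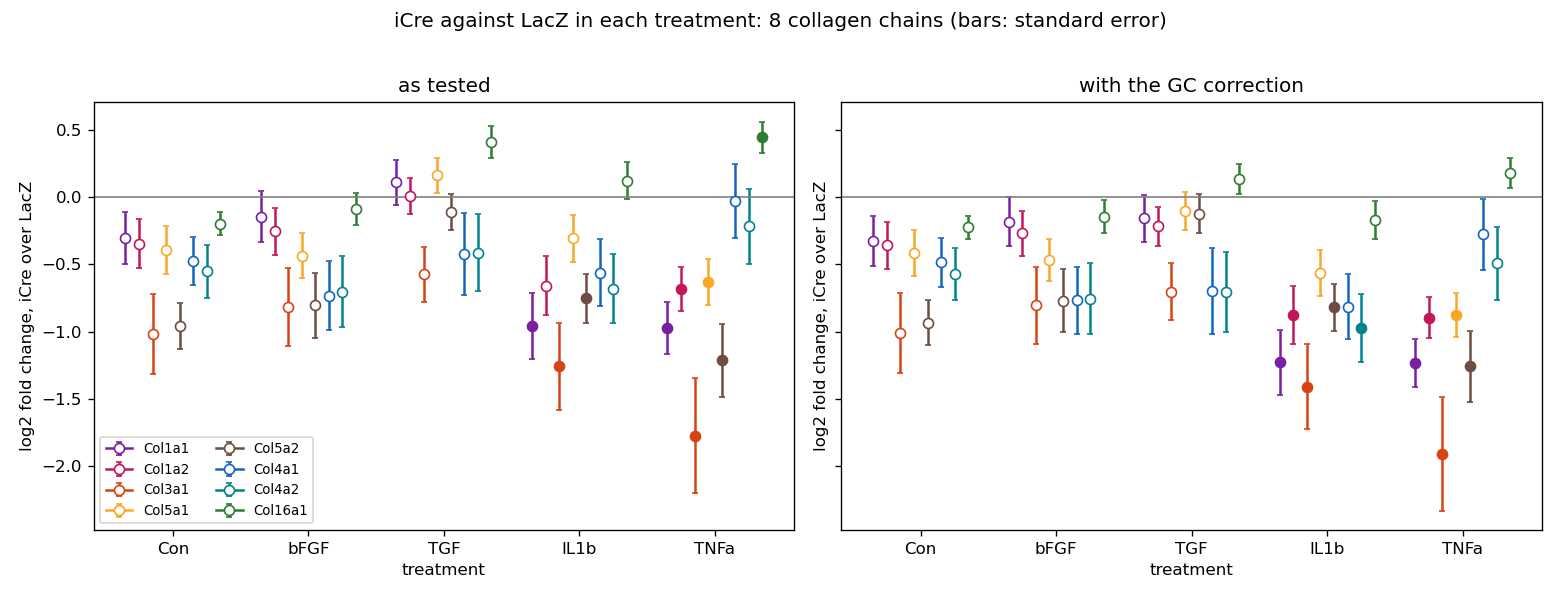
Log2 fold change of iCre over LacZ (vertical axis, bars for standard errors) of 8 collagen chains in each treatment (horizontal axis), as tested on the left and with the GC correction on the right. Filled points were called and open points were not. With TNFα the values as tested ran from −1.77 for Col3a1 to 0.45 for Col16a1, and with the GC correction Col16a1 was no longer called.

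Col4a1 and Col4a2 encode the chains found in nearly all basement membranes. In LacZ fibroblasts IL-1β raised both, with Col4a1 at 1708, 1142, 1430 and 1491 CPM in Con and 3396, 1772, 2613 and 2829 CPM with IL-1β, without overlap (log2 fold change of 0.89 with a standard error of 0.21, adjusted p = 0.0145), and Col4a2 at 2796, 1499.6, 2273 and 2288 CPM against 1445, 970.0, 1318 and 1378 CPM (log2 fold change of 0.80 with a standard error of 0.21, adjusted p = 0.021). These calls were lost without replicate 3 or 4, that of Col4a2 also without replicate 1 (adjusted p up to 0.0881 and 0.11). With TGFβ the changes were 0.71 for Col4a1 (adjusted p = 0.0661; 0.63, adjusted p = 0.00205 with the block) and 0.47 for Col4a2 (adjusted p = 0.159; 0.42, adjusted p = 0.00844 with the block). In iCre fibroblasts Col4a1 rose with TGFβ (0.77) and with IL-1β (0.82), both with overlapping groups and both lost with the GC correction (0.58, adjusted p = 0.101 and 0.57, adjusted p = 0.139). In Con, Col4a1 was at 1388, 1036, 856 and 911 CPM in iCre, with replicate 1 within the LacZ range (log2 fold change −0.47, adjusted p = 0.282; −0.48, adjusted p = 0.00142 with the block). The length-scaled ratio of Col4a1 to Col4a2 stayed between 1.09 ± 0.0582 and 1.29 ± 0.0301 as group means over all 10 groups. Endothelial and mural cells also make these chains: the 5 mural markers summed to 321 to 856 CPM with IL-1β and 742 to 1274 CPM with TGFβ in LacZ, and the endothelial ones to 6.85 to 9.57 CPM and 6.84 to 8.81 CPM, and their part in these values was not tested.

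Col4a5 and Col4a6 encode chains of a more restricted network and are neighbours on the X chromosome. Col4a6 fell with TGFβ in iCre fibroblasts, from 119, 60.6, 136 and 81.1 CPM to 56.8, 31.5, 61.5 and 38.4 CPM (log2 fold change of −1.06 with a standard error of 0.27, adjusted p = 0.011), with 1 overlapping pair of libraries and with replicate 2 the lowest in both groups. Col4a5 was called in no comparison without the block, at 543, 268, 471 and 456 CPM in LacZ Con and 441, 197, 406 and 323 CPM in iCre Con. The ratio of Col4a5 to Col4a6, length-scaled, was 5.53 ± 0.532 in LacZ Con and 3.54 ± 0.459 in iCre Con. It was lower in iCre than in LacZ in all 5 treatments with no overlap of libraries (exact permutation p = 0.0286 and adjusted p = 0.0572 in each). Col4a3 and Col4a4, the chains of the kidney filter, were at group means of 0.844 to 7.42 CPM and were called in no comparison without the block. With the block, 3 of these lower-level type IV chains (Col4a3, Col4a4 and Col4a6) fell with TGFβ in LacZ, and Col4a3, Col4a4, Col4a5 and Col4a6 fell with IL-1β (42% and 33.5% of all genes called).

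Col12a1 and Col14a1 both coat type I fibrils, and TGFβ moved them in opposite directions in LacZ fibroblasts. Col12a1 was at 85.2, 189, 85.2 and 74 CPM in Con and 1063, 3309.5, 892 and 991 CPM with TGFβ, without overlap (log2 fold change of 3.88 with a standard error of 0.50, adjusted p = 1.73e-04), and it rose by 3.86 in iCre. Replicate 2 was the highest in both groups, and leaving out each number kept the call. Col14a1 was at 455, 121, 331 and 359 CPM in Con and 90.1, 67.6, 158 and 179 CPM with TGFβ (log2 fold change of −1.35 with a standard error of 0.41, adjusted p = 0.0241), where replicate 2 of Con lay within the TGFβ range, and the call was lost without replicate 1, 3 or 4 (adjusted p up to 0.155). In Con, Col14a1 was at 255, 34.6, 119.9 and 103 CPM in iCre, lower within every replicate number (log2 fold change −1.32, adjusted p = 0.322; −1.49, adjusted p = 4.88e-07 with the block).

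Col16a1, a fibril-associated chain with a wide tissue range, rose with TGFβ from 367, 327, 358 and 361 CPM to 475, 603, 473 and 468 CPM in LacZ (log2 fold change of 0.53 with a standard error of 0.11, adjusted p = 0.0034) and from 329.5, 276, 309 and 327 CPM to 615, 799, 650.4 and 675 CPM in iCre (log2 fold change of 1.16 with a standard error of 0.11, adjusted p = 1.84e-05). The response differed between the viruses by 0.60 (adjusted p = 0.0298), and this call was lost with the GC correction (0.35, adjusted p = 0.356) and without replicate 1, 3 or 4. With TNFα the LacZ libraries held 306, 286, 302 and 310.1 CPM, and the iCre libraries 349.6, 358, 473 and 437 CPM. Every iCre library was the higher (log2 fold change of 0.45 with a standard error of 0.11, adjusted p = 0.0159; interaction 0.63, adjusted p = 0.00668), and the GC correction took both below the threshold (0.18, adjusted p = 0.305; interaction 0.39, adjusted p = 0.0785), as did leaving out replicate 3 or 4. TNFα also raised Col16a1 within iCre (0.41), which was not called with the GC correction (0.32, adjusted p = 0.0807) or without replicate 3 or 4. The Col16a1 transcript has a GC content of 61.4%.

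Col22a1, known from junctions of muscle and tendon, was scarce except with TNFα in LacZ fibroblasts. It was at 0.112, 0.0878, 0.142 and 0.261 CPM in LacZ Con and 3.46, 4.33, 11.3 and 7.54 CPM with TNFα, with no overlap (log2 fold change of 5.48 with a standard error of 0.49, adjusted p = 7.55e-05). IL-1β took it to 0.662, 0.434, 0.783 and 0.947 CPM (log2 fold change of 2.25 with a standard error of 0.44, adjusted p = 0.00577), a call lost without replicate 3 (adjusted p = 0.0559). The iCre libraries held 0.524, 0.122, 0.359 and 0.174 CPM in Con, 0.941, 0.0952, 0.389 and 0.389 CPM with TNFα and 0.318, 0.0727, 0.12 and 0.294 CPM with IL-1β, so all 3 groups overlapped. The difference in response was called with TNFα (log2 fold change of −4.85 with a standard error of 0.86, adjusted p = 0.00119) and with IL-1β (log2 fold change of −2.82 with a standard error of 0.76, adjusted p = 0.0315). It held for TNFα without each replicate number in turn (adjusted p up to 0.0458), with the block (−4.92, adjusted p = 1.75e-04) and with the GC correction (−4.99, adjusted p = 0.00154). Between iCre and LacZ it differed by −3.85 with TNFα (adjusted p = 0.00145; −4.72 (adjusted p = 8.20e-04) without replicate 1) and −1.84 with IL-1β (adjusted p = 0.0318). With IL-1β the interaction and this difference were lost without replicate 1, 3 or 4 (adjusted p up to 0.293 and 0.185). With TGFβ the same gene fell to 0.0276 to 0.0534 CPM in LacZ (log2 fold change −1.74, adjusted p = 0.0495), and this call was lost with the block (−1.65, adjusted p = 0.141), with DESeq2, with no filter, with the GC correction, in the fit of all 40 libraries and whichever replicate number was left out (adjusted p up to 0.238).

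The other FACIT chains were low. Col20a1 fell in LacZ fibroblasts from 3.06 to 4.1 CPM in Con to 0.507 to 1.83 CPM with TGFβ (−1.65 on the log2 scale), and by −1.39 with IL-1β, −1.35 with TNFα and −0.88 with bFGF. The call with bFGF was lost without replicate 1, 3 or 4 (adjusted p up to 0.156) and in the fit of all 40 libraries. In iCre it fell with TNFα (−1.74), and with IL-1β it was higher in iCre than in LacZ (0.98), a call lost with the GC correction (0.76, adjusted p = 0.151) and without any 1 replicate number. Col9a2 and Col9a3 encode type IX chains, which bind type II fibrils in cartilage. Col9a2 was near the floor, with group means from 0.144 CPM in LacZ with TNFα to 1.55 CPM in LacZ with TGFβ. It rose with TGFβ in LacZ (1.11) and fell there with IL-1β (−2.06) and TNFα (−2.28). The first of these calls was lost without replicate 2, 3 or 4 (adjusted p up to 0.126) and in the fit of all 40 libraries, and the second without replicate 1 or 3 (up to 0.0896). Col9a3 fell with TGFβ in LacZ (−1.26) and with TGFβ (−1.23) and IL-1β (−1.03) in iCre. The call in LacZ was lost without replicate 4 (adjusted p = 0.0896) and that with IL-1β without replicate 1, 3 or 4 (adjusted p up to 0.18). In the annotation 6.07% of the exonic bases of Col9a3 overlap Tcfl5 on the opposite strand.

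Type VI chains build beaded filaments near cells, and Col6a1, Col6a2 and Col6a3 make the classical form. With TGFβ all 6 type VI chains were called in LacZ fibroblasts, 5 lower and Col6a3 higher, with 17.5% of all genes higher and 19.3% lower. Col6a1 was at 1479.6, 867, 1316 and 1226 CPM in Con and 492, 896, 644 and 606 CPM with TGFβ, with replicate 2 of the 2 groups overlapping (log2 fold change of −0.88 with a standard error of 0.21, adjusted p = 0.00766). Col6a2 was at 837, 471, 806 and 768 CPM and 334, 595, 416 and 393 CPM (−0.72), while Col6a3 was at 240.4, 377, 163 and 205 CPM and 393, 757, 309.5 and 384 CPM (0.93). These 3 calls were lost without replicate 1, 3 or 4 (adjusted p up to 0.148) and kept with the block. That of Col6a4 (−2.18) was lost without the same numbers (adjusted p up to 0.082) and was −3.21 (adjusted p = 0.00128) without replicate 2, so the calls of Col6a5 and Col6a6 were the 2 kept each time. Per kb, the ratio of Col6a3 to Col6a1 was 0.09 ± 0.058 in LacZ Con and 0.28 ± 0.0676 with TGFβ. In iCre, TGFβ lowered Col6a1 (−0.49; lost without replicate 1, 3 or 4, adjusted p up to 0.203) and raised Col6a3 (0.95). TGFβ also lowered Col6a5 (−5.41, and −6.05 without replicate 2) and Col6a6 (−4.26, and −4.95 without replicate 1) in iCre. Both calls were kept without each replicate number (adjusted p up to 0.00635 and 0.00964), with Col6a5 at a mean of 0.0175 CPM. With IL-1β Col6a3 was higher in iCre than in LacZ (log2 fold change of 1.52 with a standard error of 0.29, adjusted p = 0.0054). Col6a6 was lower with every ligand in LacZ, from 2.18 to 3.45 CPM in Con to 0.047 to 0.0758 CPM with TGFβ (−5.53) and 0.0499 to 0.244 CPM with IL-1β (−4.26). Its call with TNFα in LacZ was lost in the fit of all 40 libraries. In iCre it was also lower with IL-1β and TNFα, calls kept without each replicate number (adjusted p up to 0.0228 and 0.0429). At levels this low the size of a fold is uncertain.

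Col15a1 and Col18a1 encode multiplexins of the basement membrane zone, and Col18a1 is the source of endostatin. bFGF raised both in LacZ: Col15a1 went from 706, 925, 1429 and 1084 CPM to 1774, 1604, 2734 and 1998 CPM (log2 fold change of 0.98 with a standard error of 0.23, adjusted p = 0.0242), and Col18a1 rose by 0.66, with no overlap in either gene, and both calls were lost without replicate 3 or 4, that of Col15a1 also without replicate 1 (adjusted p up to 0.138 and 0.11). Col18a1 also rose with IL-1β (0.51, not called in the fit of all 40 libraries) and TNFα (0.74), and Col15a1 with IL-1β was higher in iCre than in LacZ (1.03; 0.80, adjusted p = 0.0587 with the GC correction, and lost without replicate 1 or 4). Col8a1 and Col8a2 form short-chain lattices in vessel walls and other tissues. Col8a1 was at 642, 221, 646 and 689 CPM in LacZ Con and 2572, 906, 2048 and 2222 CPM with TGFβ (log2 fold change of 1.83 with a standard error of 0.40, adjusted p = 0.00452), and replicate 2 was the lowest in both. Col8a2 went from 0.505 to 4.13 CPM to 30.6 to 94.1 CPM with TGFβ (4.36), rose by 6.38 in iCre (without replicate 2, 3.45 (adjusted p = 5.58e-07) in LacZ and 5.67 (adjusted p = 1.65e-08) in iCre), and fell with TNFα in LacZ (−2.64), the last lost without replicate 1, 3 or 4 (adjusted p up to 0.0603). In Con, Col8a1 differed by −1.28 between iCre and LacZ (adjusted p = 0.191; −1.25, adjusted p = 3.08e-07 with the block).

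Col7a1, whose product forms the fibrils that anchor the epidermis, was at 6.68, 14, 7.97 and 7.84 CPM in LacZ Con and 116, 112, 133 and 142 CPM with TGFβ (log2 fold change of 3.81 with a standard error of 0.22, adjusted p = 1.67e-06). In iCre it was at 7.59, 9.85, 7.7 and 7.16 CPM in Con and 279, 149.6, 292 and 319 CPM with TGFβ (log2 fold change of 5.03 with a standard error of 0.25, adjusted p = 5.72e-07). Every iCre library with TGFβ was above every LacZ one. The difference within TGFβ (log2 fold change of 1.02 with a standard error of 0.20, adjusted p = 0.0134) and that of the responses (1.20, adjusted p = 0.0399) were called, and both were lost with the GC correction (0.74, adjusted p = 0.149; interaction 0.95, adjusted p = 0.258) and without replicate 1, 3 or 4 (adjusted p up to 0.122 and 0.284). The Col7a1 transcript has a GC content of 61.6%. TNFα raised Col7a1 by 1.07 in LacZ, a call lost without replicate 1, 3 or 4, and by 0.74 in iCre, lost without replicate 3 (adjusted p up to 0.123 and 0.0686). Of the transmembrane chains, Col13a1 fell in LacZ from 0.798 to 1.81 CPM in Con to 0.0276 to 0.0941 CPM with TGFβ, 0.0271 to 0.125 CPM with IL-1β and 0 to 0.138 CPM with TNFα. At such levels the size of a fold is uncertain, here as in other chains near the floor, and none is printed for these falls. With bFGF Col13a1 fell by −1.19, a call lost with the GC correction (−1.13, adjusted p = 0.0535), in the fit of all 40 libraries and without replicate 1, 3 or 4. Col25a1 was called higher in iCre than in LacZ with IL-1β, at 0.112, 0.6, 0.103 and 0.401 CPM against 0, 0.0543, 0 and 0 CPM, and with TNFα, at 0.0254, 1.5, 0.273 and 0.843 CPM against 0.0339, 0.0699, 0.0553 and 0.0379 CPM. With counts this low no fold is given, and both calls were lost in 3 of the 4 fits that left out a replicate number (adjusted p up to 0.126 and 0.121). Col23a1 fell with TGFβ in LacZ (−1.76) and iCre (−2.83). Without replicate 2 these values were −1.11 (adjusted p = 0.038) and −1.51 (adjusted p = 0.0248), and the call in LacZ was lost without replicate 1 (adjusted p = 0.0741) and in the fit of all 40 libraries. With TNFα in iCre it was at 1.35, 1.5, 0.623 and 0.681 CPM against 2.95, 17.7, 1.54 and 1.63 CPM in Con, where replicate 2 stood high (log2 fold change of −2.48 with a standard error of 0.80, adjusted p = 0.045), and this call was lost whichever replicate number was left out (adjusted p up to 0.0882), with −1.16 (adjusted p = 0.069) without replicate 2. Col17a1 was higher in iCre than LacZ with TNFα (1.89), a call lost without replicate 3 or 4 (adjusted p up to 0.0929). Col28a1 fell with IL-1β in LacZ (−1.24), which was lost without replicate 1 or 3 (adjusted p up to 0.0766) and in the fit of all 40 libraries.

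Collagen needs hydroxylases, chaperones, procollagen proteinases and lysyl oxidases to mature. Their numbers stand against the shares of all genes given above for each comparison. Of 31 such genes, TGFβ raised 21 and lowered 1 in LacZ. The 3 largest rises were those of Lox (3.28), Tll1 (2.72) and Loxl3 (2.43). The fall was that of Colgalt2 (−3.57), from a mean of 1.58 CPM to 0.13 CPM. In iCre 22 rose and 2 fell with TGFβ. IL-1β raised 16 and lowered 1 in LacZ and raised 11 in iCre, TNFα raised 5 and lowered 3 in LacZ and raised 9 and lowered 4 in iCre, and bFGF raised 5 and lowered 2 in LacZ and raised 2 and lowered 0 in iCre. Deletion lowered 5 and raised 0 with IL-1β, led by Loxl2 (−1.93) and Lox (−1.74), which cross-link collagen, and lowered 7 and raised 5 with TNFα. Loxl2 was the only one of the 31 called between iCre and LacZ in Con without the block (−0.97). With TGFβ 0 were higher and 2 lower in iCre, and none was called with bFGF. With the replicate block the numbers higher and lower in LacZ were 21 and 1 with TGFβ, 21 and 3 with IL-1β, 11 and 6 with TNFα, and 14 and 5 with bFGF. In iCre they were 23 and 3, 24 and 2, 17 and 6, and 13 and 3 in the same order. Between iCre and LacZ the block gave 3 higher and 15 lower in Con, 6 and 6 with TGFβ, 1 and 20 with IL-1β, 6 and 9 with TNFα, and 3 and 13 with bFGF. Of 8 collagen receptors, 3 rose and 2 fell with TGFβ in LacZ, with 17.5% of all genes higher and 19.3% lower (4 and 2 with the block, which called 42% of all genes), among them Itga11 (2.43), an integrin chain that binds type I fibrils. The numbers higher and lower were 0 and 2 with IL-1β, 1 and 1 with TNFα and 2 and 1 with bFGF in LacZ, and 2 and 2 with TGFβ, 0 and 0 with IL-1β, 1 and 1 with TNFα and 1 and 0 with bFGF in iCre. Between iCre and LacZ they were 0 and 0 in Con, 0 and 2 with TGFβ, 2 and 0 with IL-1β, 1 and 1 with TNFα and 0 and 0 with bFGF, beside the shares of all genes given above. With the block they were 0 and 5, 1 and 4 and 3 and 2 in LacZ (IL-1β, TNFα, bFGF), 5 and 2, 2 and 3, 1 and 4 and 3 and 2 in iCre (TGFβ, IL-1β, TNFα, bFGF), and 1 and 4, 2 and 4, 2 and 3, 1 and 3 and 2 and 3 between iCre and LacZ in the order just given.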

How the data were processed

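Polyadenylated RNA of 40 samples was sequenced. The authors checked reads with FastQC, aligned them with STAR to mm10 and counted them per gene with HTSeq 0.10.0. The deposited values are raw counts, with no total for unassigned reads. The strand setting and annotation release are not given in the sources used here. All 40 count columns matched a library by its labels.

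Genes with at least 10 counts in total were tested with edgeR 4.0.16 (TMM, quasi-likelihood test, Benjamini-Hochberg adjustment over all 25210 genes, threshold 0.05), with 8 libraries per pair of groups and 16 per interaction. CPM are TMM-scaled, and levels per kb use annotated transcript length. A standard error of a log2 fold change is its absolute value divided by the square root of the F value of the test, and was not estimated separately. The scripts were tested on simulated data. Same-numbered libraries deviated together from their group means (correlation 0.314 to 0.865 over 12300 genes, against mean values of −0.213 to −0.137 for other numbers), so the numbers were taken to pair the samples, and a fit with the replicate block stands beside the fit without it. The GC correction uses a smooth trend on transcript GC content in each library as an offset. Other alternatives were DESeq2 1.42.0, RLE normalization, filterByExpr, no filter, protein-coding genes only, all 40 libraries in a single fit, and leaving out each replicate number. The fits that left out a number did not use the pairing, and the fits with the block were not repeated with a number left out. Called fibrillar, type IV and FACIT chains are named, and of the calls in the other classes only a part is given. The members, gene lists and tests were chosen with earlier results of these data known.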

Additional observations from a re-analysis of the deposited data

Results flagged for a closer look

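In 16 of 180 groups of 4 libraries, the highest or lowest library stood apart from the other 3 by Dixon's criterion. Chance gives about 1 in 20 for independent, normally distributed values. These groups share replicate numbers whose libraries deviate together, and CPM were used without a log, so that rate is not a yardstick here. For Col12a1 this was replicate 2 in 6 groups, at 188.96 CPM in LacZ Con, 3309.5 CPM in LacZ with TGFβ, 212.67 CPM in iCre Con, 330.92 CPM in iCre with bFGF, 3357.8 CPM in iCre with TGFβ and 571.53 CPM in iCre with IL-1β, all above the other libraries. Replicate 2 also stood apart for Col16a1 in LacZ with TGFβ (603.43 CPM, high), Col4a5 in LacZ with TGFβ (236.05 CPM) and with TNFα (216.86 CPM), and Col8a1 in LacZ Con (220.8 CPM), the last 3 low. Replicate 1 stood high for Col14a1 in iCre with TGFβ (89.597 CPM) and TNFα (155.39 CPM), and in iCre Con for Col15a1 (1538.7 CPM), Col4a2 (1240.3 CPM) and Col5a2 (1810.2 CPM). Replicate 4 stood low for Col1a1 in iCre with TGFβ (19819.0 CPM).

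The response to a ligand differed between iCre and LacZ for 8 chain and ligand pairs by the interaction test of edgeR. With TGFβ these were Col16a1 (0.60), Col5a2 (0.84) and Col7a1 (1.20), with IL-1β Col22a1 (−2.82), Col27a1 (2.55) and Col8a2 (2.85), and with TNFα Col16a1 (0.63) and Col22a1 (−4.85), each as iCre minus LacZ on the log2 scale. Col8a2 with IL-1β was at 0.392 to 1.36 CPM in LacZ and 1.02 to 2.21 CPM in iCre (2.59, adjusted p = 0.061 with the GC correction). Of these 8, the 2 of Col22a1 were still called with the GC correction.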

How the results depend on the processing

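Of 132 called values of single chains, 55 were called under every alternative and 98 under every alternative that kept all replicates. DESeq2 gave no adjusted p for Col23a1 with TNFα in iCre, which is not counted among its lost calls. Calls lost were 43 without replicate 1, 9 without replicate 2, 69 without replicate 3, 65 without replicate 4, 21 with the GC correction and 21 with all 40 libraries in a single fit. Without replicate 3 or 4 the share of all genes called fell in each comparison that had a called chain. No called value changed sign. The uncalled change of Col3a1 with TGFβ in iCre went from 0.18 to −0.052 (adjusted p = 0.937) without replicate 2 (range −0.052 to 0.35 over the replicates left out), and that of Col1a1 between iCre and LacZ with TGFβ from 0.11 to −0.16 (adjusted p = 0.76) with the GC correction and −0.16 (adjusted p = 0.455) with that and the block. The cause was not tested.

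The numbers of chains called were 25 for TGFβ in LacZ, 15 for IL-1β in LacZ, 15 for TNFα in LacZ, 7 for bFGF in LacZ, 23 for TGFβ in iCre, 4 for IL-1β in iCre, 12 for TNFα in iCre, 0 for bFGF in iCre, 0 for deletion with Con, 1 for deletion with TGFβ, 10 for deletion with IL-1β, 12 for deletion with TNFα, 0 for deletion with bFGF, 3 for the TGFβ interaction, 3 for the IL-1β interaction, 2 for the TNFα interaction and 0 for the bFGF interaction. With the replicate block, which uses the pairing of the numbers, they were (here and for the other settings with the share of all genes called in the same fit in parentheses) 32 for IL-1β in LacZ (33.5%), 28 for TNFα in LacZ (35.5%), 21 for bFGF in LacZ (27.3%), 23 for IL-1β in iCre (33.8%), 31 for TNFα in iCre (36.1%), 18 for bFGF in iCre (16.7%), 21 for deletion with Con (14.5%), 17 for deletion with TGFβ (20.8%), 24 for deletion with IL-1β (29.5%), 20 for deletion with TNFα (32.2%), 21 for deletion with bFGF (13.9%), 8 for the TGFβ interaction (8.04%), 13 for the IL-1β interaction (16.9%) and 10 for the TNFα interaction (25.1%), and with the GC correction and replicate block 33 for IL-1β in LacZ (34%), 29 for TNFα in LacZ (36.1%), 23 for bFGF in LacZ (27.5%), 24 for IL-1β in iCre (29.6%), 31 for TNFα in iCre (34.2%), 20 for bFGF in iCre (16.5%), 21 for deletion with Con (15%), 10 for deletion with TGFβ (9.38%), 23 for deletion with IL-1β (22.7%), 19 for deletion with TNFα (28.6%), 21 for deletion with bFGF (14.4%), 10 for the IL-1β interaction (12.4%) and 15 for the TNFα interaction (20.8%). The block ended 1 call, that of Col22a1 with TGFβ in LacZ. With the GC correction alone the number was 2 for IL-1β in iCre (9.5%), 0 for deletion with TGFβ (1.2%), 0 for the TGFβ interaction (0.817%) and 1 for the IL-1β interaction (3.93%). DESeq2 called 4 for bFGF in iCre (8%), 3 for deletion with Con (5.25%), 6 for deletion with TGFβ (14.9%), 16 for deletion with IL-1β (21.9%) and 5 for the TNFα interaction (20.3%), filterByExpr 1 for bFGF in iCre (5.28%) and 2 for deletion with TGFβ (20.1%), the fit of protein-coding genes 2 for deletion with TGFβ (14.7%), and the fit of all 40 libraries 1 for deletion with Con (1.61%) and 4 for deletion with TGFβ (14.2%). All other counts were within 1.5 times the reported one. Leaving out each replicate number gave the following counts, with the range of the share of all genes in parentheses. In LacZ they were 17 to 30 for TGFβ (25.9% to 37.1%), 7 to 21 for IL-1β (9.22% to 23.4%), 6 to 22 for TNFα (10.5% to 23.5%) and 1 to 13 for bFGF (1.32% to 18.2%). In iCre they were 19 to 26 for TGFβ (27% to 40%), 1 to 8 for IL-1β (6.85% to 18.1%), 4 to 11 for TNFα (14% to 25.4%) and 0 to 6 for bFGF (0% to 12.7%). For deletion they were 0 to 6 with Con (0% to 2.78%), 0 to 11 with TGFβ (2.01% to 12.5%), 2 to 16 with IL-1β (6.18% to 16.6%) and 3 to 15 with TNFα (13% to 27.1%). For the interactions they were 0 to 6 with TGFβ (1.28% to 5.27%), 0 to 5 with IL-1β (2.37% to 6.85%) and 1 to 3 with TNFα (5.39% to 15.4%).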
